A study of Mus musculus with 2 samples.

Results

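The 10 genes described here are Cd3d, Cd3e, Cd3g, Cd247, Lck, Zap70, Lat, Nkg7, Cd2 and Lef1, genes of T cell receptor signalling and of natural killer (NK) cells, named as a list of symbols and matched by gene identifier to 10 of the 43346 annotated genes in the tables. They were measured in megakaryocyte-erythroid progenitors (MEP), the bone marrow cells that give rise to red cells and megakaryocytes, isolated as primary cells from adult male C57BL/6J mice of 5 to 6 weeks, with no allele or treatment stated. There were 2 libraries of RNA longer than 200 bases, replicate 1 and replicate 2, each from a pool of 100 cells, with separate biosamples but the same donor record. The series held 1 group and no second condition, so every difference below is between these libraries, no p-value was computed, and the spread may be technical. The members were chosen by their TPM and expected counts in these same libraries, so their levels are a description.

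The T cell receptor recognises antigen through its alpha and beta, or gamma and delta, chains and signals through the attached CD3 gamma, delta and epsilon chains and the zeta chain. The cytoplasmic tails of these signalling chains carry immunoreceptor tyrosine-based activation motifs (ITAMs), whose paired tyrosines are phosphorylated by the kinase Lck and then bound by the kinase Zap70, which phosphorylates the adaptor Lat. NK cells lack a rearranged receptor and use the zeta chain and other adaptors with some of the same kinases. MEP are not known for using this receptor, although megakaryocytes and platelets use Lat downstream of other receptors.

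The coding stretches of the 6 ITAMs in these genes are shown because the split of Cd3g and Cd247 reads among transcript models, described further on, decides how much of each gene's TPM lies in models that hold them. They were read from the GENCODE M21 transcript sequences (GRCm38), are written 5′ to 3′ on the coding strand, and the capitals mark the codons of the paired tyrosines. Each stretch crosses an exon junction, so its genomic span includes intron. The Cd3d stretch spans chr9:44986095-44986311 (plus strand), that of Cd3e chr9:44999549-45000440 (minus) and that of Cd3g chr9:44970735-44971268 (minus). The stretches of Cd247 span, in the order of its motifs, chr1:165856451-165857454, chr1:165858473-165859260 and chr1:165859819-165861042 (plus).
Cd3d motif 1: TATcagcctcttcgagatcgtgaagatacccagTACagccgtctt
Cd3e motif 1: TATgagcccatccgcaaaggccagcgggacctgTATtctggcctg
Cd3g motif 1: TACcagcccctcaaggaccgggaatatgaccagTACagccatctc
Cd247 motif 1: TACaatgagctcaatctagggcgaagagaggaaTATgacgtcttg
Cd247 motif 2: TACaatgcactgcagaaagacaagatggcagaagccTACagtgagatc
Cd247 motif 3: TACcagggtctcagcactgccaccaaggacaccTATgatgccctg

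Replicate 1 had 30016974 expected counts, 13518448 of them on protein-coding nuclear genes, and replicate 2 had 51510347, with 25799923 on those genes. All 8 listed MEP markers had at least 1 TPM in each library, as did 44.2% of protein-coding nuclear genes. The markers include the erythroid factors Gata1 and Klf1 and the receptor genes Kit and Epor. Their median was 81.8 TPM in replicate 1 against 91.6 TPM in replicate 2, and they summed to 650 and 754 TPM. Of 8 megakaryocyte markers 3 reached 1 TPM in both libraries, as did 1 of 7 stem and multipotent progenitor markers. TPM is the authors' share of transcripts, corrected for length and set to a fixed total. Markers of other lineages set the libraries apart. In replicate 1 the median of the 8 neutrophil markers was 106 TPM, above that of the MEP markers, against 0 TPM in replicate 2. The 8 neutrophil markers summed to 1882 TPM in replicate 1 against 6.39 TPM in replicate 2, where Ngp, Ltf, Lcn2, Elane and Mpo had 0 counts, and the 8 B lineage markers summed to 7.14 TPM in replicate 1, where Vpreb1 and Ms4a1 had 0 counts, and 127 TPM in replicate 2.

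The 10 genes were expressed at low to moderate levels, with medians far under those of the MEP markers. Among those markers Itga2b, which encodes CD41, was the lowest, with 11.45 TPM in replicate 1 against 14.5 TPM in replicate 2, and Nkg7 exceeded it in both libraries and Cd3g in replicate 1. Cd3g did so only with a short retained-intron model, described below, that added 6.97 TPM to the 5.63 TPM of its full-length model. The median of the 10 genes was 4.30 TPM in replicate 1 against 4.35 TPM in replicate 2, against medians of 0.38 and 0.36 TPM over all protein-coding nuclear genes. All 10 reached 1 TPM in replicate 1, and 9 did in replicate 2 and in both, while 44.2% of protein-coding nuclear genes reached 1 TPM in both. By mean TPM, between 55.0% of protein-coding nuclear genes, for Cd2, and 84.3%, for Nkg7, stood at or below a member. In pooled cells, a few cells with much of an RNA and many cells with little of it cannot be told apart.

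In order of mean TPM the genes ran Nkg7, Lef1, Lat, Cd3g, Cd3e, Lck, Cd3d, Cd247, Zap70 and Cd2. Neighbours in this order were further apart than the larger of their SDs only at the steps from Nkg7 to Lef1, from Lck to Cd3d and from Cd247 to Zap70. The other 6 steps were smaller than that spread.

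**Figure D1:**
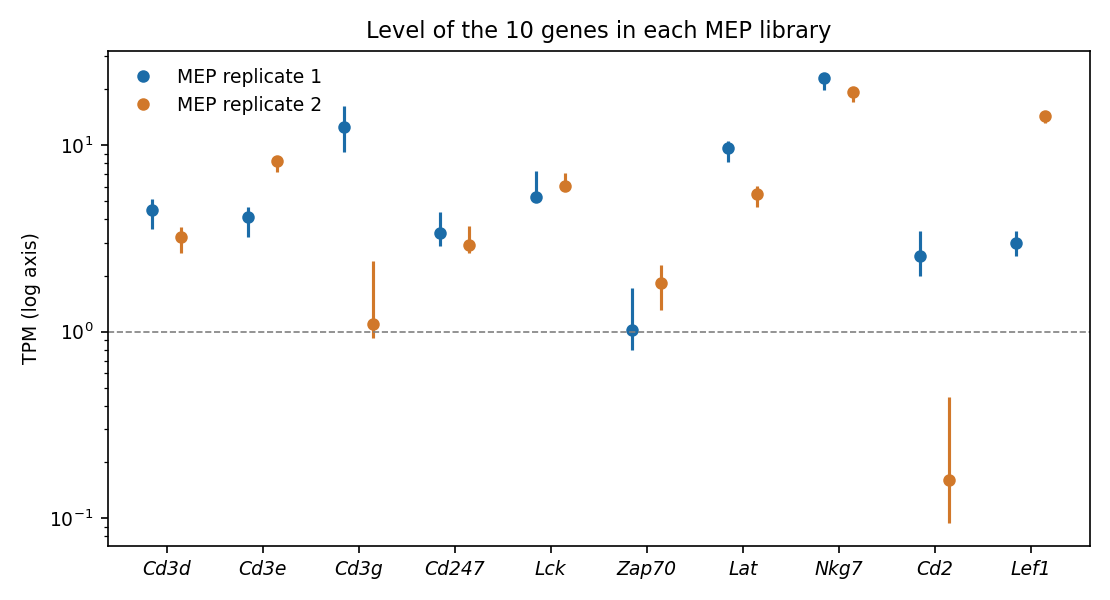
TPM (log axis) of each of the 10 genes in MEP replicate 1 (left point of each pair) and MEP replicate 2 (right point), with bars for the authors' credibility bounds and a dashed line at 1 TPM. The point of Cd2 in replicate 2, at 0.16 TPM, is the one under the line, and Cd3g, Cd2 and Lef1 have the widest gaps between libraries.

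Of the 10 genes, 3 differed by 2-fold or more between the libraries on the log2(TPM + 1) scale, on which a fold understates the change of low genes. Cd3g and Cd2 were higher in replicate 1, where 4.35% of the 11438 genes with a mean of 1 TPM or more passed that fold, and Lef1 was higher in replicate 2, where 6.92% did. In either direction the share was 11.3% of those genes, and it was 14.4% of genes between 1 TPM and the mean of the highest member. On that scale, subtracting replicate 2 from replicate 1, the 10 genes had a median of 0.20 and the 11438 genes one of -0.18, with an SD of 0.80. With TMM or DESeq2 scaling, which centre most genes by construction, the median of all genes was -0.01. Intervals of ratios below are exact, at 95%, and cover counting error only.

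**Figure D2:**
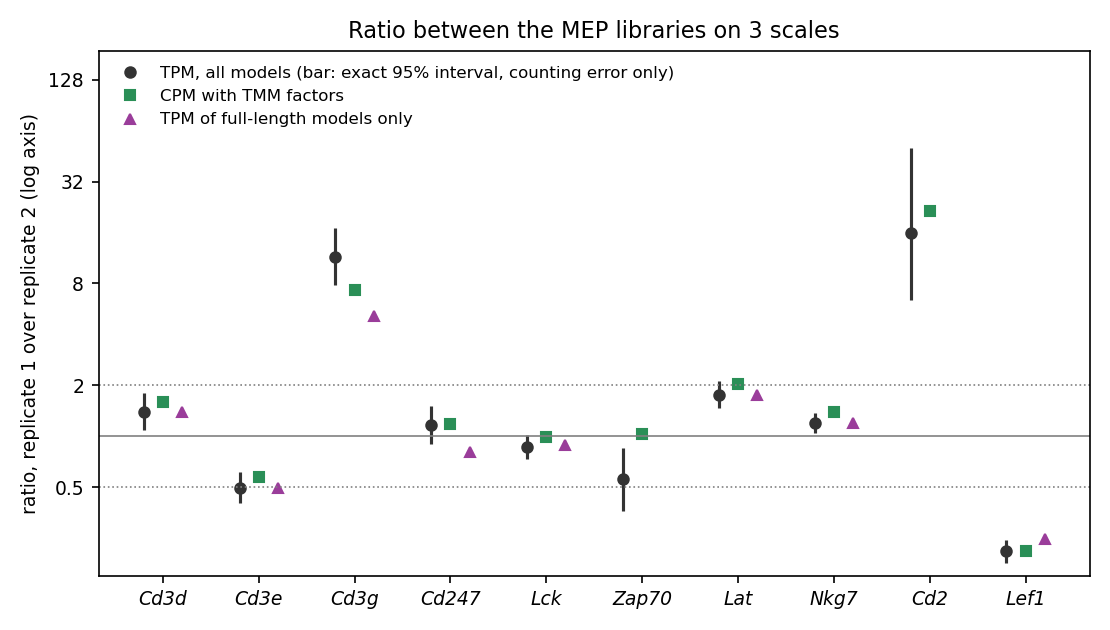
Ratio of MEP replicate 1 over MEP replicate 2 (log axis) for each gene, from TPM with its exact 95% interval (circles, bars), from CPM with TMM factors (squares) and from the TPM of full-length models (triangles, absent for Zap70 and Cd2, whose full-length models are listed at 0 in replicate 2). The solid line marks equal levels and the dotted lines 2-fold; Cd3g and Cd2 lie above and Lef1 below them on each scale drawn, and Cd3e in TPM and Lat in CPM lie just past them.

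The 4 genes of the signalling chains were all detected, and the balance among them differed between libraries. Cd3d, which encodes the CD3 delta chain (ENSMUSG00000032094.7, mm10 chromosome 9, 44981786 to 44987339, plus strand), had 4.49 TPM from 117 counts in replicate 1 against 3.22 TPM from 144 counts in replicate 2, a mean of 3.86 ± 0.898 TPM (SD, n = 2). Replicate 1 was higher, at a ratio of 1.39 (1.08 to 1.79). Cd3e, which encodes the epsilon chain (ENSMUSG00000032093.6, chromosome 9, 44998740 to 45009627, minus strand), had 4.10 TPM from 117 counts in replicate 1 against 8.24 TPM from 404 counts in replicate 2, a mean of 6.17 ± 2.93 TPM (SD, n = 2). Here replicate 2 was the higher, and the ratio of replicate 1 to replicate 2 was 0.498 (0.402 to 0.613), a log2(TPM + 1) difference of -0.86 that fell short of 2-fold on that scale.

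Cd3g, which encodes the gamma chain (ENSMUSG00000002033.9, chromosome 9, 44969572 to 44980431, minus strand), had 12.6 TPM from 134 counts in replicate 1 against 1.10 TPM from 36 counts in replicate 2, a mean of 6.85 ± 8.12 TPM (SD, n = 2). Its ratio was 11.4 (7.87 to 17.0) in TPM, 7.35 in CPM (counts over the library total) with TMM factors and 5.17 in the TPM of its full-length model. Replicate 1 was higher on all 3 scales, and the ratio was smallest where the short transcript models, described below, were left out. Cd247, which encodes the zeta chain (ENSMUSG00000005763.11, chromosome 1, 165788681 to 165877277, plus strand), had 3.37 TPM from 98 counts in replicate 1 against 2.90 TPM from 163 counts in replicate 2, a mean of 3.14 ± 0.332 TPM (SD, n = 2). The ratio of 1.16 (0.895 to 1.502) included equal levels, and it became 0.804 with full-length models only, so its direction depended on the models counted.

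Cd3g, Cd3d and Cd3e are neighbours on chromosome 9. Cd3g and Cd3d are transcribed away from each other from starts 1354 bases apart, and Cd3e lies 11400 bases beyond Cd3d. Their ratios nonetheless ran from 11.4 to 0.498, with Cd3d between the other two. The next gene beyond Cd3g, the ubiquitin ligase gene Ube4a, had 25.5 TPM in replicate 1 against 27.4 TPM in replicate 2. Together the 4 signalling-chain genes summed to 24.6 TPM in replicate 1 against 15.5 TPM in replicate 2, and in replicate 1 Cd3g alone gave the largest share of that sum. Of these sums, 6.97 TPM in replicate 1 and 0.01 TPM in replicate 2 lay in the short Cd3g model described below. A further 1.06 and 0.04 TPM lay in a non-coding model of Cd247. The gap between the sums thus rests largely on models that are not full-length.

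The kinase gene Lck lay within the range of the signalling chains by mean TPM, and Zap70 lay below all 4. Lck (ENSMUSG00000000409.10, chromosome 4, 129548344 to 129573641, minus strand) had 5.25 TPM from 228 counts in replicate 1 against 6.06 TPM from 456 counts in replicate 2, a mean of 5.66 ± 0.573 TPM (SD, n = 2). Its ratio was 0.866 (0.736 to 1.02), which included equal levels. Zap70 (ENSMUSG00000026117.10, chromosome 1, 36761798 to 36782818, plus strand) had 1.02 TPM from 36 counts in replicate 1 against 1.82 TPM from 69 counts in replicate 2, a mean of 1.42 ± 0.566 TPM (SD, n = 2). Its TPM ratio was 0.560 (0.364 to 0.850), while the ratio was 0.895 in CPM over library totals and 1.03 in CPM with TMM factors, so its direction depended on the scaling. Syk, the relative of Zap70 used by B cells, myeloid cells and platelets, had 11.95 TPM in replicate 1 against 16.0 TPM in replicate 2, above Zap70 in both.

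Lat, the membrane adaptor that Zap70 phosphorylates (ENSMUSG00000030742.6, chromosome 7, 126363824 to 126369570, minus strand), had 9.66 TPM from 234 counts in replicate 1 against 5.48 TPM from 227 counts in replicate 2, a mean of 7.57 ± 2.96 TPM (SD, n = 2). Replicate 1 was higher, with a ratio of 1.76 (1.46 to 2.13). Its neighbour Spns1, 489 bases away on the same strand and encoding a lysosomal transporter, was higher in replicate 2, with 9.67 TPM in replicate 1 against 14.5 TPM in replicate 2.

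Cd2, an adhesion receptor of T and NK cells (ENSMUSG00000027863.8, chromosome 3, 101275899 to 101287939, minus strand), had 2.54 TPM from 54 counts in replicate 1 against 0.16 TPM from 5 counts in replicate 2, a mean of 1.35 ± 1.68 TPM (SD, n = 2). It was the one member under 1 TPM in a library, and its ratio of 15.9 (6.40 to 50.9) has the widest interval because replicate 2 held so few counts. The floor that 3 counts set for Cd2 was 0.141 TPM in replicate 1 against 0.096 TPM in replicate 2, so the value in replicate 2 is close to the limit of detection.

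Nkg7, which encodes a membrane protein of cytotoxic granules in NK and T cells (ENSMUSG00000004612.8, chromosome 7, 43437073 to 43438249, plus strand), was the highest of the 10 genes. It had 23.0 TPM from 375 counts in replicate 1 against 19.2 TPM from 529 counts in replicate 2, a mean of 21.1 ± 2.66 TPM (SD, n = 2). The libraries were close, with a ratio of 1.20 (1.04 to 1.37). The genes on either side, Lim2 and Cldnd2, had 0 counts in both libraries.

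Lef1, a DNA-binding partner of beta-catenin in early T and B cells (ENSMUSG00000027985.10, chromosome 3, 131110471 to 131224356, plus strand), had 3.00 TPM from 177 counts in replicate 1 against 14.3 TPM from 1671 counts in replicate 2, a mean of 8.65 ± 7.98 TPM (SD, n = 2). Replicate 2 was higher, with a ratio of 0.210 (0.179 to 0.245), and Lef1 was the one member past 2-fold in that direction on the log2(TPM + 1) scale. The direction of Lef1 went with the B lineage markers, of which 7 of the 7 with a mean of 1 TPM or more were also 2-fold or more higher in replicate 2. Their medians were 0.655 TPM in replicate 1 against 11.4 TPM in replicate 2, and their part in the Lef1 difference was not tested. Hadh, the gene beyond Lef1, had 13.2 and 13.3 TPM in replicates 1 and 2.

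The sum of a gene's TPM hides which transcript models the reads were assigned to, so models were divided into full-length ones, annotated as protein-coding with both ends complete, and all others, which are truncated or non-coding. Cd3d, Cd3e, Lat and Nkg7 have 1 model each in the tables, which is full-length. Of the 6 genes with several models, only Cd247, Lck and Lef1 had 50% or more of their TPM in full-length models in both libraries, or 7 of 10 with the single-model genes. Which genes passed depended on the definition. Counting as full-length the models of at least 0.75 of the longest one, Cd247 fell to 7.14% in replicate 1 and 0% in replicate 2 and Lef1 to 46.7% in replicate 1, while Cd2 had 100% in both. By share of expected counts Cd3g passed as well, with 81.9% in replicate 1 and 99.8% in replicate 2. By the first definition, in TPM, 61.5% of protein-coding nuclear genes with both kinds of model and a mean of 1 TPM or more passed. Of those with counts in the range of the 6 members, 55.2% passed. The same model led in both libraries in 2 of the 6, Cd247 and Zap70, against 59.3% of genes with similar counts.

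**Figure D3:**
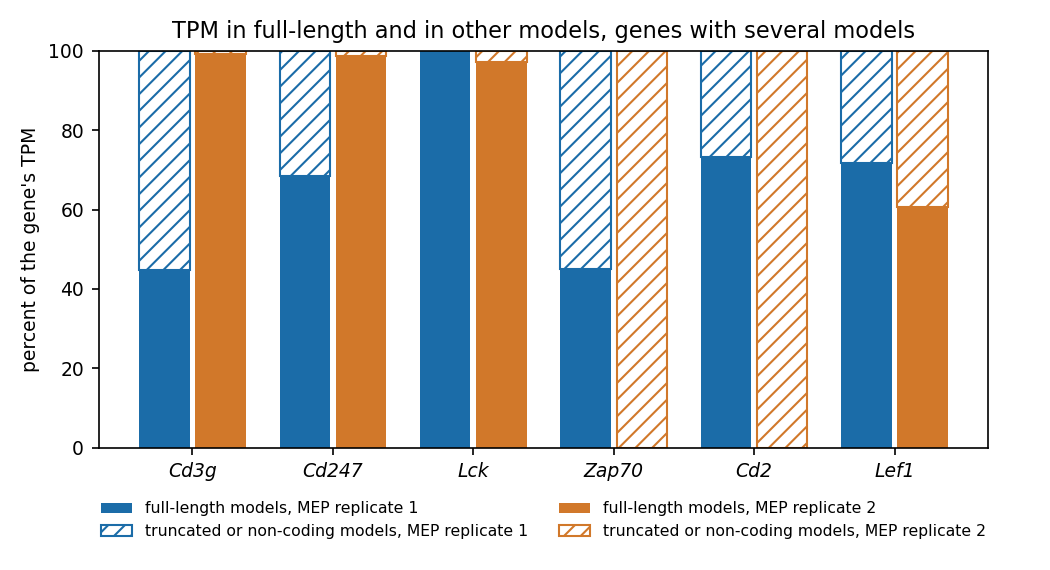
Percent of each gene's TPM in full-length models (filled) and in truncated or non-coding models (hatched), for the 6 genes with several models, in MEP replicate 1 (left bar) and MEP replicate 2 (right bar). Zap70 and Cd2 have no filled part in replicate 2, and the bars of Lck are filled to 100% and 97.2%.

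For Cd3g the full-length share was 44.7% in replicate 1 and 99.1% in replicate 2. The rest in replicate 1 was a retained-intron model, Cd3g-202, of 294 bases in the tables, to which 24.3 counts were assigned. Because this model is so short, those counts made 6.97 TPM, more than the 5.63 TPM that 110 counts made on the full-length Cd3g-201, the model that holds the Cd3g ITAM stretch shown above. Whether Cd3g-202 as quantified holds it was not determined, since the later annotation gives this model another length. The effective length of the gene was accordingly 484 bases in replicate 1 and 848 bases in replicate 2. Cd3g-201 alone had 5.63 TPM in replicate 1 against 1.09 TPM in replicate 2, a log2(TPM + 1) difference of 1.67 in place of 2.69.

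Cd247 had 68.5% of its TPM in full-length models in replicate 1 and 98.6% in replicate 2. The main model, Cd247-201, which carries all 3 ITAM stretches, had 61.3% in replicate 1 and 98.6% in replicate 2. In replicate 1 a further 31.5% was in Cd247-207, a processed transcript with none of the main coding sequence, against 1.36% in replicate 2. The transcript gene Gm16565 overlaps Cd247 on the same strand and had 7.03 TPM in replicate 1 against 0.53 TPM in replicate 2, and Pou2f1 overlaps it on the other strand with 15.3 and 13.5 TPM, so the assignment of reads to Cd247 is uncertain.

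Zap70 and Cd2 had few counts, and in replicate 2 none of them were assigned to full-length models. For Zap70 the full-length share was 45.1% in replicate 1, and the full-length model was listed at 0 in replicate 2. Most of its TPM was in Zap70-204, a retained-intron model with 52.4% of the main coding sequence, at 55.1% in replicate 1 and 64.5% in replicate 2. Zap70-203, another retained-intron model, had 0% in replicate 1 and 35.5% in replicate 2. Cd2 had 73.2% in full-length models in replicate 1, while in replicate 2 all 5 counts were on the retained-intron model Cd2-203. With the authors' posterior means, which spread counts over models, the full-length shares in replicate 2 were 5.20% for Zap70-201 and 16.7% for Cd2-201.

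Lef1 kept most of its TPM in full-length models, 71.7% in replicate 1 and 60.6% in replicate 2. Which of them led was not the same. Lef1-201, the longest coding form, had 38.0% in replicate 1 and 24.7% in replicate 2, Lef1-202 had 0% and 32.8%, and Lef1-203, which starts downstream of the first coding exon, had 33.7% and 3.07%. Models from the upstream start took 38.0% of Lef1 TPM in replicate 1 and 57.5% in replicate 2. The retained-intron models Lef1-205 and Lef1-206 together were assigned 45.1 counts in replicate 1 and 597 counts in replicate 2.

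Lck showed the sharpest split by start site. Mouse Lck has a distal and a proximal promoter, both used in thymocytes, with the distal one prevailing in mature T cells. Lck-202 begins at the upstream start, Lck-201 and Lck-208 begin 15250 and 15269 bases downstream of it, and Lck-201 and Lck-202 have the same coding length of 1527 bases. All 228 counts of replicate 1 were assigned to Lck-202, whereas in replicate 2 it was assigned 0, Lck-201 took 73.1% and Lck-208 24.1% of the TPM. The authors' credibility bounds did not overlap between libraries for Lck-202, at 2.49 to 5.22 TPM in replicate 1 and under 1.31 TPM in replicate 2. Nor did they for Lck-201, at under 0.510 TPM in replicate 1 and 2.62 to 5.51 TPM in replicate 2. They did overlap for Lck-208, at under 2.01 TPM in replicate 1 and under 2.55 TPM in replicate 2, and the value of 5.25 TPM for Lck-202 in replicate 1 lies just above its own upper bound. By posterior means the upstream share was 65.6% in replicate 1 and 7.05% in replicate 2. The tables count reads per model, not per exon, so how many reads fell on the differing first exons was not analysed here.

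**Figure D4:**
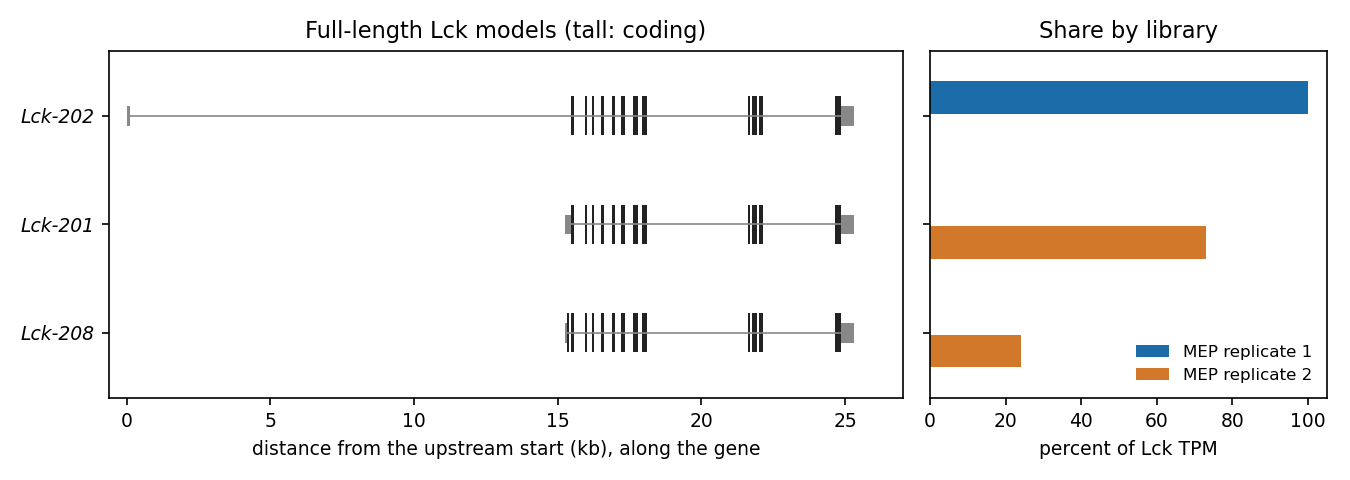
Left, exons of the 3 full-length Lck models by distance from the upstream start (kb, coding exons tall); right, the percent of Lck TPM in each model in MEP replicate 1 (upper bar) and MEP replicate 2 (lower bar). Replicate 1 has its full 100% on the model with the upstream start, and replicate 2 has 73.1% and 24.1% on the models with the downstream start.

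The 250 bases before each of these starts, from RefSeq on GRCm38.p6 and written 5′ to 3′ on the strand of the gene, are shown because the libraries divided between them. The upstream window is chr4:129573642-129573891 and the downstream window chr4:129558373-129558622, both on the minus strand, and the last bases of the downstream one hold the start of the first exon of Lck-201. The capitals mark matches, on either strand, to GGAAG, a core of sites for ETS factors, or TGTGGT, a core for RUNX factors. Both strands were also searched for AGATAA, which factors of the Gata family bind, and for CTTTGA, which TCF and LEF factors bind.
Lck upstream start: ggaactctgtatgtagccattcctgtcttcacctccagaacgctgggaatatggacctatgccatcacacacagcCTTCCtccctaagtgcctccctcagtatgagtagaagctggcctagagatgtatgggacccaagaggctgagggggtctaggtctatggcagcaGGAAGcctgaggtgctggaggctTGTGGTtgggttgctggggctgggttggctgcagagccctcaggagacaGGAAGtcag
Lck downstream start: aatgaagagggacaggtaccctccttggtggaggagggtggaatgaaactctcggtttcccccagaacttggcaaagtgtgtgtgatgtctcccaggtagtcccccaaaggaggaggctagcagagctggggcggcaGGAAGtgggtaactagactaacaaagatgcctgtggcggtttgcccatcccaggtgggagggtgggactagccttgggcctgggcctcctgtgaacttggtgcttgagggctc

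The upstream window held 3 matches to GGAAG and 1 to TGTGGT, and the downstream window 1 match to GGAAG. Neither held AGATAA or CTTTGA, and no matches overlapped. Of 32851 windows of the same length before RefSeq starts, 64.1% hold GGAAG, 14.0% TGTGGT, 9.99% AGATAA and 13.8% CTTTGA. A match is a run of letters and was not tested as a binding site.

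Constant genes of the antigen-binding chains that the CD3 chains serve also had counts. Of 17 measured genes of receptor chains and coreceptors, 7 reached 1 TPM in both libraries (41.2%, against 44.2% of all protein-coding nuclear genes). The beta chain constant genes Trbc1 and Trbc2 had 12.1 and 18.5 TPM in replicate 1, against 11.7 and 9.86 TPM in replicate 2, though they are near-identical copies between which reads cannot be split with certainty. The gamma chain constant genes Tcrg-C1, Tcrg-C2 and Tcrg-C4 had 4.76, 4.09 and 6.81 TPM in replicate 1, against 3.68, 5.07 and 8.99 TPM in replicate 2. The alpha constant gene Trac had 3.45 TPM from 21 counts in replicate 1 against 1.98 TPM from 19 counts in replicate 2. All 6 of these constant genes had counts in both libraries, and the delta constant gene Trdc was not used here. Counts on a constant gene do not tell a rearranged from an unrearranged locus, so they do not show an antigen-binding chain.

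The coreceptors of mature T cells were at or near 0. Cd4 had 0 counts in replicate 1 and 1 count in replicate 2, Cd8a had 0 in both, Cd8b1 had 6 and 0, and Ptcra, the pre-T cell receptor alpha chain, had 0 in both. Cd27, a costimulatory receptor also found on progenitors and B cells, was in both libraries at 3.29 TPM in replicate 1 against 4.43 TPM in replicate 2. Thy1 had 0.31 TPM in replicate 1 against 3.33 TPM in replicate 2, the one gene of this list past 2-fold, and Cd6 had 0.85 and 1.28 TPM. Cd5, Cd28, Ctla4 and Icos stayed under 1 TPM in both.

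Variable segments gave a sparse picture. Of 132 annotated variable genes of the T cell receptor loci, 13 had counts in replicate 1 and 10 in replicate 2, with 5 in both, for sums of 133 and 234 counts. By locus these were 79 counts at alpha/delta, 29 at beta and 25 at gamma in replicate 1, and 123, 78 and 33 in replicate 2. The 7 constant genes summed to 545 counts in replicate 1 and 724 in replicate 2. The 66 joining and 4 diversity segments have an effective length of 0 in the tables and so could receive no counts. A variable gene's counts do not tell a rearranged from an unrearranged locus.

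The other members of the proximal signalling pathway were mostly expressed, with list medians above those of the 10 genes. Of 30 listed genes, 24 were at 1 TPM or more in each library (80%, against 44.2% of all protein-coding nuclear genes). The median of the list was 5.56 TPM in replicate 1 against 5.08 TPM in replicate 2. The highest were the kinase gene Csk, which holds Src family kinases off, at 52.2 ± 3.26 TPM, and Ptprc, the CD45 phosphatase of blood cells, at 40.1 ± 12.6 TPM (SD, n = 2). The adaptor gene Grb2 followed at 32.0 ± 4.21 TPM and the phosphatase gene Ptpn6 at 31.4 ± 0.679 TPM (SD, n = 2). All of these serve many receptors. Of the 26 genes with a mean of 1 TPM or more, 4 were 2-fold or more higher in replicate 1 and 1 in replicate 2, where all genes gave 4.35% and 6.92%.

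Related kinases and adaptors of other receptors were compared by family. Of 9 Src, Syk and Tec family kinases other than members, 4 reached 1 TPM in both libraries (44.4%, against 44.2% of all protein-coding nuclear genes). These were Btk at 23.3 ± 2.16, Syk at 14.0 ± 2.88, Lyn at 10.1 ± 0.877 and Tec at 3.2 ± 1.34 TPM (SD, n = 2). Of 7 genes in a list of adaptors and platelet ITAM partners, to which the lectin gene Clec2d was added, 4 reached 1 TPM in both (57.1%). Clec2d was the highest of them, with 18.1 TPM in replicate 1 against 8.46 TPM in replicate 2. Sh2b3, Plcg2 and Lat2, the B cell and myeloid relative of Lat, were at 5.39 ± 0.198, 4.25 ± 0.587 and 3.05 ± 0.424 TPM (SD, n = 2). The listed platelet receptor genes were at or near 0. Gp6, the platelet collagen receptor, had 0 counts in both libraries, and Clec1b had 4 counts (0.19 TPM) in replicate 1 and 0 in replicate 2.

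Among T lineage transcription factors, 8 of 14 reached 1 TPM in both libraries (57.1%, against 44.2% of all protein-coding nuclear genes). Of the 12 with a mean of 1 TPM or more, 3 were 2-fold or more higher in replicate 1 and 1 in replicate 2, beside the 4.35% and 6.92% of all genes. Runx3 was at 25.3 ± 5.23 TPM, Tcf7, the closest relative of Lef1, at 6.81 ± 1.53 TPM, Id2 at 5.66 ± 2.85 TPM and Ets1 at 5.12 ± 0.629 TPM (SD, n = 2). Tcf7 had 7.89 TPM in replicate 1 against 5.72 TPM in replicate 2, and so did not share the direction of Lef1. Of 15 partners and targets of TCF/LEF factors 12 reached 1 TPM in both (80%, against the same 44.2%). Among them the beta-catenin gene Ctnnb1 was at 69.5 ± 5.32 TPM and Tle3, a corepressor, at 24.3 ± 3.203 TPM (SD, n = 2). Gsk3b and Pygo2 were at 19.3 ± 4.65 and 17.9 ± 2.76 TPM (SD, n = 2). Axin2, a target gene of this pathway named here after its values were seen, had 0.54 TPM in replicate 1 against 2.68 TPM in replicate 2, the one gene of that list past 2-fold. In the same list Ccnd1 had 1.63 TPM in replicate 1 against 1.77 TPM in replicate 2. Rnf43 was higher in replicate 1, with 2.83 against 1.97 TPM, and Nkd1 had 0 counts in both. A link between Axin2 and Lef1 was not tested.

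NK and cytotoxic genes were unevenly detected. Of 29 measured, 8 reached 1 TPM in both libraries (27.6%, against the 44.2% of all protein-coding nuclear genes), 6 in replicate 1 alone, none in replicate 2 alone and 15 in neither. Of all 21461 protein-coding nuclear genes, 9908 reached 1 TPM in replicate 1, 9933 in replicate 2 and 9484 in both. Of the 13 NK and cytotoxic genes with a mean of 1 TPM or more, 5 were 2-fold or more higher in replicate 1 and 0 in replicate 2, beside the same 4.35% and 6.92% of all genes. The highest were Cd48, a ligand of an NK receptor found on most blood cells, with 11.1 TPM in replicate 1 against 17.0 TPM in replicate 2, and the chemokine gene Ccl5 with 19.3 and 4.17 TPM. Cd7 had 6.89 and 7.82 TPM and the interleukin receptor gene Il2rb 7.73 and 4.75 TPM in replicates 1 and 2.

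Several genes typical of NK cells had counts in replicate 1 alone. Named after their values were seen, the chemokine gene Xcl1 had 88 counts and 10.4 TPM, the ITAM adaptor gene Tyrobp 70 counts and 7.44 TPM, and the NK receptor gene Ncr1 79 counts and 2.71 TPM in replicate 1, and all of them had 0 counts in replicate 2. The granzyme gene Gzma had 3.37 TPM in replicate 1 against 0.58 TPM in replicate 2, and the perforin gene Prf1 had 9 counts and 0. Eomes, an NK cell factor, had 0 and 2 counts. The receptor genes Klrb1c and Klrk1 were low in both libraries, at 0.51 and 0.51 TPM in replicate 1 against 0.19 and 0.87 TPM in replicate 2. Nkg7 did not follow Xcl1, Tyrobp and Ncr1, with a ratio of 1.20 between libraries in which those genes were detected in 1 only. Neutrophils also express Tyrobp, and the neutrophil markers were higher in replicate 1 by the sums given above; their part in these differences was not tested.

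**Figure D5:**
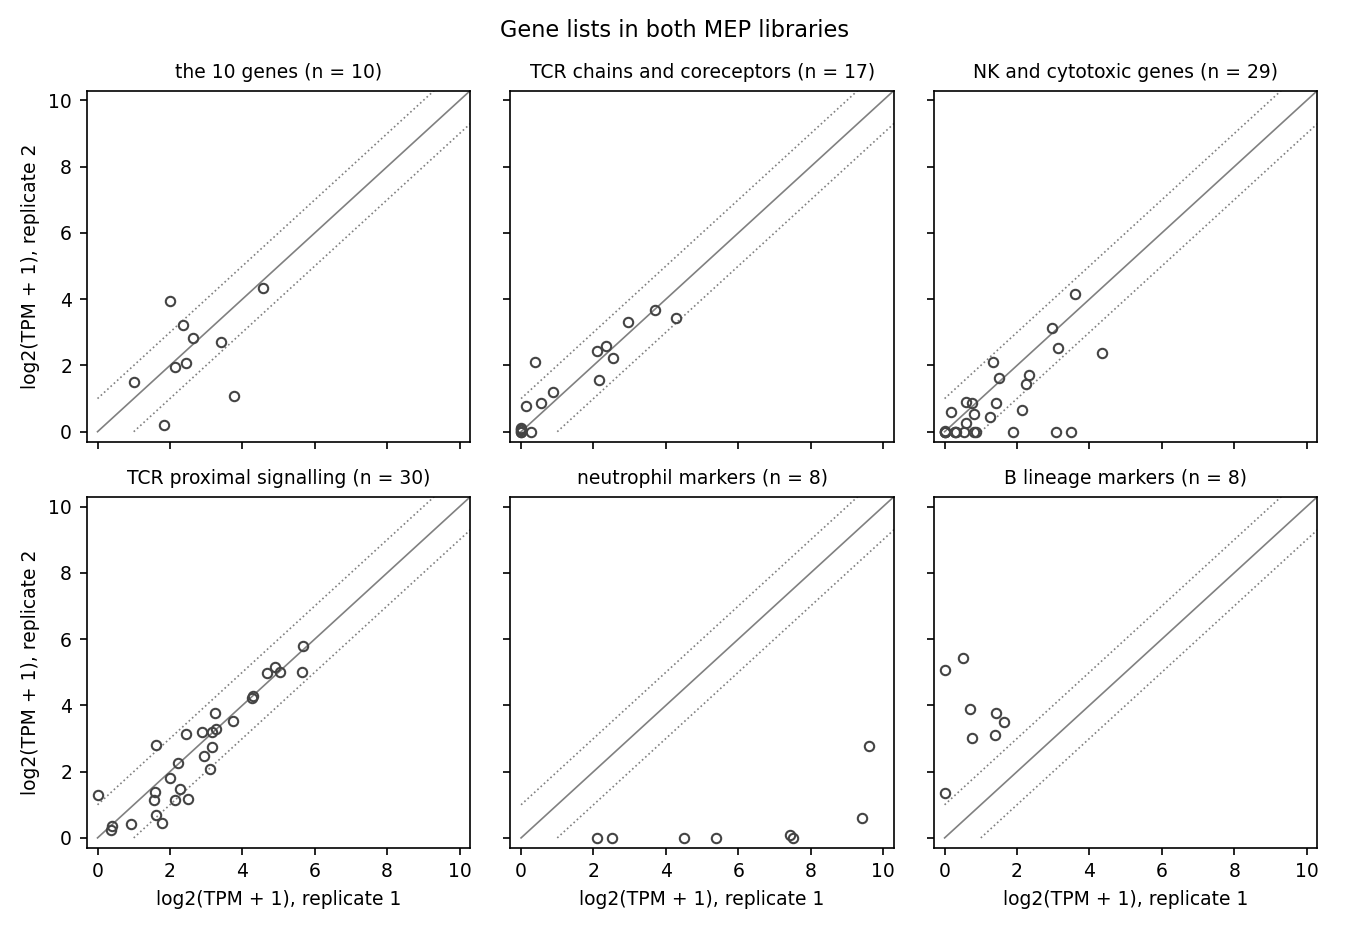
log2(TPM + 1) in MEP replicate 1 (x axis) and MEP replicate 2 (y axis) for the 10 genes and 5 gene lists, 1 point a gene, with a solid line at equal levels and dotted lines at 2-fold. Most TCR proximal signalling genes lie between the dotted lines, NK genes at 0 on the y axis were seen in replicate 1 alone, and neutrophil and B lineage markers lie on opposite sides.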

How the data were processed

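Both MEP libraries were used, with the replicate number that the labels give. The authors quantified genes and transcripts against mm10 with GENCODE M4, per the text file deposited beside the tables; the aligner and quantifier are not stated there. The deposited expected counts are the authors' estimates of reads per gene or model, with fractions where reads were shared. The authors scaled the deposited TPM values for effective length over all features. Each model's share of its gene's TPM, in percent, was deposited by the authors, as were FPKM values and score columns (posterior SDs), which were not used. The deposited signal columns hold the authors' credibility bounds of TPM, at a level that is not stated.

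Gene names, types and positions were taken from GENCODE M21 (GRCm38) by identifier without version, which matched 42462 of 43346 genes and all 10 members. Of 37 member models 5, those of Cd3d, Cd3e, Lat and Nkg7 and Cd3g-202, have another length there than in the tables. Whether counting used strand is not stated, so antisense overlaps are uncertain. The members and lists were chosen with earlier results of these data known. The genes named are all members, their models with 10% or more of TPM and some of their neighbours, the 4 highest genes of each list, and receptor chains and coreceptors at 1 TPM. Further list genes were chosen after their values were seen, to show levels at or near 0, markers, or the direction of a list. Trdc and Cd58 were not used here.

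The libraries were not 1 library deposited a second time, since their counts differed by a chi-square of 83.1 for each degree of freedom (13354 genes). Differences were log2(TPM + 1), replicate 1 minus replicate 2, called at 2-fold. Ratios have Clopper-Pearson intervals (exact, 95%) given the sum of the rounded counts. These intervals, like the floor of 3 counts, describe counting error alone, and reads from PCR are not separate molecules. With 1 group, no test was made. The calculation was tested on simulated counts that varied by counting error alone. Such counts lack other spread between libraries, so they do not test the calls against it. Alternatives were TMM scaling in edgeR 4.0.16 and the size factors of DESeq2 1.42.0 (R 4.3.3; expected counts rounded), pseudocounts of 0.1 and 0.5, other minimums and folds, posterior means and other definitions of a full-length model. Other steps used Python 3.11.15, numpy 2.4.6, pandas 2.3.3, scipy 1.17.1 and matplotlib 3.10.9.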

Additional observations from a re-analysis of the deposited data

How the results depend on the processing

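No paired analysis was possible because the series has 1 group. The count of members at the detection minimum in both libraries, 9 of 10, stayed at 9 when TPM was rescaled over protein-coding nuclear genes, with posterior means and with minimums of 0.5 TPM or 10 counts, and ran from 9 to 10 with either library alone; with a minimum of 5 TPM it was 3. Over the pathway lists 67 of 121 genes passed, beside 44.2% of all protein-coding nuclear genes. The count was 31 with a minimum of 5 TPM, 69 to 87 under the other minimums and scalings, and 73 to 79 with either library alone. The 3 members apart by 2-fold stayed 3 under other pseudocounts, TMM, DESeq2, posterior means, rescaling, full-length models and CPM over library totals (the last 2 chosen after seeing the data), and were 5 at 1.5-fold and 1 at 4-fold. The share of all genes past the fold, 11.3%, was 15.6% and 13.2% with pseudocounts of 0.1 and 0.5, 12.7% after rescaling and 9.94% with posterior means. It was 3.72% with no filter, 6.75% with a mean of 5 TPM, 6.29% with TMM, 6.26% with DESeq2, 27.5% at 1.5-fold and 2.76% at 4-fold. Members with 50% or more of their TPM in full-length models, 7 of 10, ran from 6 to 8 under other definitions and with either library alone, and the genes were not the same: by model length Cd247 and Lef1 left and Cd2 entered. Of 80 alternative log2 differences of single members 14 were called moved, by a small margin and the interval of the TPM ratio. That interval has no pseudocount, so a change of pseudocount alone could count as a move, and the 14 do not measure counting error. None that was past 2-fold changed sign. Of 40 alternative mean levels 11 moved by more than 1 SD, 10 of them through rescaling to a smaller set of genes. Levels from either library alone, which are among the 40, could not move, because each of 2 values lies within 1 SD of their mean. Depth limits Cd2 in replicate 2, at 5 counts, and the models of Zap70, at 36 and 69 counts.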
